A study of Drosophila melanogaster with 9 samples.

Results

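The nuclear genes for the proteins of the mitochondrial ribosome were followed in the midgut of Drosophila melanogaster larvae. Members were all genes whose symbol starts with mRpL (large subunit) or mRpS (small subunit), with bonsai, the small-subunit protein S15, added. Each gene was read from the brightest probe set that is annotated to it alone. The reference table held 74 such genes. Of these, 65 had a probe set of their own, among 10845 genes with one on the array, and they comprised 43 large-subunit and 22 small-subunit genes. mRpL27, mRpL34, mRpL37, mRpL53, mRpS5, mRpS14, mRpS21 and mRpS23 had none, and mRpS10 was covered only by a probe set shared with other genes, so these 9 were not analysed here.

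All larvae were of the strain W1118 and in the third instar, were kept at 24 °C, and had their midguts dissected and pooled, with 50 midguts to a pool and 1 pool to an array. Control larvae were labelled normal for 12 h and 120 h old. WGA larvae were fed 1% wheat germ agglutinin (WGA, a chitin- and sugar-binding plant lectin) for 12 h. They received it from 108 h of age (108 to 110 h for 1 of the pools). Starved larvae went without food for 12 h from 108 h. There were 3 arrays per group and 9 in all, described in the labels as biological replicates. The study asked how the midgut transcriptome responds to the lectin and to starvation, and the starved group lets a response to WGA be set beside one to lack of food.

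Mitochondria keep a small genome of their own, and the few proteins it encodes are core subunits of the respiratory chain and the ATP synthase. They are translated inside the organelle by a dedicated ribosome whose proteins are all encoded in the nucleus of animals, made in the cytosol and imported. The small subunit reads the messenger RNA, the large subunit forms the peptide bonds, and each holds both proteins inherited from the bacterial ancestor and proteins known only from mitochondria. In insects the gut is a tissue with active aerobic metabolism, and fly mutants of mitochondrial ribosomal protein genes such as bonsai and mRpL12 are known for impaired growth.

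Signals are given as log2 of the deposited linear signal plus an offset of 1.72, after quantile normalisation, which gives every array the same overall distribution. On this scale the change of a dim gene is understated. All 65 members passed the filter for testing, which asked for at least 3 of the 9 arrays above log2 2.79, and 59 lay above that level on every array. The exceptions were mRpL20, mRpL22, mRpL32, mRpL41, mRpL43 and mRpS24. Changes are differences of group means with the standard error of a limma fit to all 9 arrays, and a member is called higher or lower where its Benjamini-Hochberg adjusted p over the 9675 tested probe sets was under 0.05. The array measures RNA of the whole midgut, so fewer cells of a type and less RNA per cell cannot be told apart.

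After quantile normalisation the genes of the mitochondrial ribosome were mostly lower in both treated groups, and more of them after starvation. For WGA the direction depended on the scaling. The members' median change was 0.08 with the deposited scaling and 0.15 when scaled on the spiked-in control RNAs. The spike-in scaling used 9 control probe sets (Bio and Cre), and whether these follow the RNA amount of a sample was not tested. Across the 65 members, the median level on each array was 5.96, 5.52 and 5.21 in controls, 5.21, 5.13 and 4.88 after WGA, and 5.12, 4.78 and 4.45 after starvation. The control arrays lay above all treated arrays, but the lowest of them (5.2131) only just cleared the highest WGA array (5.2055), and the WGA and starvation arrays overlapped. The group means of these medians were 5.56 ± 0.37 in controls, 5.07 ± 0.17 after WGA and 4.78 ± 0.34 after starvation (SD, n = 3), while the median of all tested probe sets was held at 4.07 on each array. For the 43 large-subunit genes the lowest control array (5.07) overlapped both treatments, whose highest arrays stood at 5.14 for WGA and 5.11 for starvation. For the 22 small-subunit genes the lowest control (5.24) overlapped WGA (highest 5.25) but not starvation (highest 5.17).

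**Figure D1:**
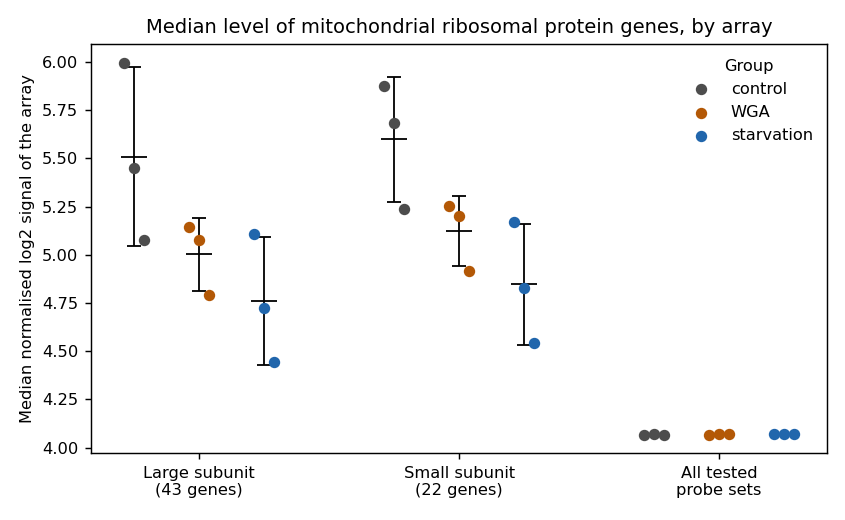
Median normalised log2 signal (y axis) of the 43 large-subunit genes, the 22 small-subunit genes and all tested probe sets on each of the 9 arrays, coloured by group, with 1 point per array and bars for the mean and SD of the 3 arrays. The lowest large-subunit control (5.07) lies among the treated arrays, while all tested probe sets stay at 4.07.

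The arrays of a group differed from each other for the whole set of genes. Among the controls, replicate 3 was the lowest for 53 of the 65 members (81.5%, against 35.5% of all tested probe sets), and replicate 1 was the highest for 56. After starvation replicate 1 was the highest for 51 members and replicate 3 the lowest for 41, and after WGA replicate 1 was the highest for 35 and replicate 3 the lowest for 38. The 3'/5' signal ratio of the GAPDH control probe sets, which grows as RNA is degraded or labelling is incomplete, was 1.97, 2.70 and 2.92 in controls, 2.25, 2.41 and 2.22 after WGA, and 2.92, 3.31 and 3.35 after starvation. Among the controls and among the starved samples, the array with the lowest ratio had the highest median of the members and the array with the highest ratio the lowest. After WGA this was not so. The eIF-4a probe sets gave 4.16, 5.72 and 3.60 in controls, 3.52, 2.75 and 3.08 after WGA, and 3.56, 3.47 and 2.83 after starvation, so that replicate 3 of the controls and of the starved samples, with the lowest members' median of its group, had the lowest ratio there. The actin ratios were 1.44, 2.36 and 1.89 in controls, 1.43, 1.49 and 1.17 after WGA, and 1.45, 1.44 and 1.51 after starvation, with control replicate 2 the highest. The ratios therefore did not order the arrays alike. The part of RNA quality in the members' levels was not tested.

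**Figure D2:**
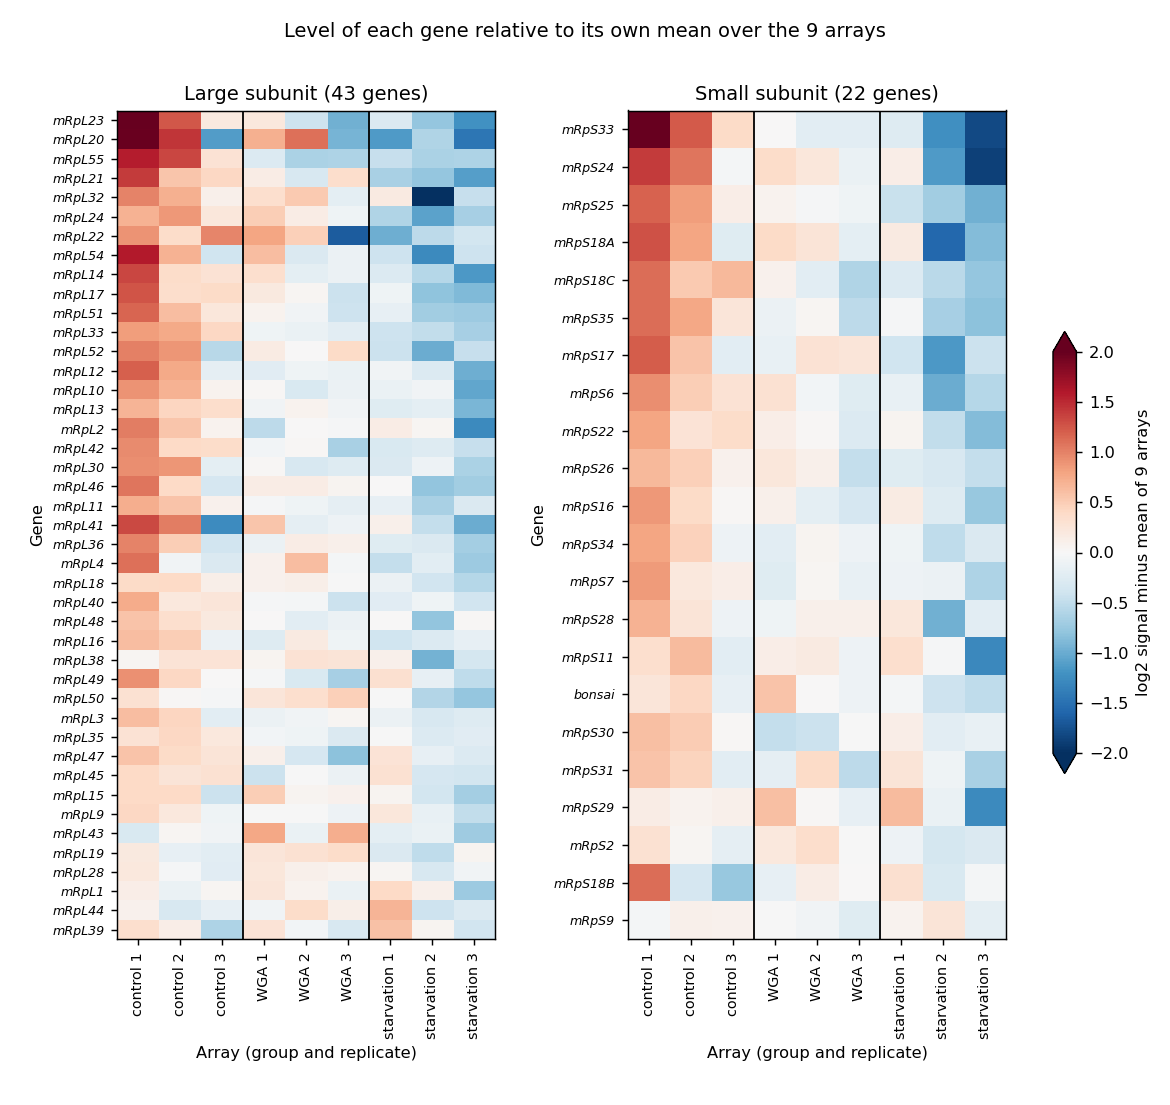
Level of each of the 65 members (1 line per gene, large subunit left and small subunit right) on the 9 arrays (columns), coloured by the log2 signal minus that gene's own mean over the 9 arrays, red above and blue below it. Control replicate 1, the highest control for 56 members, is red on most lines, control replicate 3 is paler, and starvation replicate 3 is blue on most.

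Against the controls, 20 of the 65 members (30.8%) were called lower after starvation, beside 7.09% of all tested probe sets, and 0 were called higher, beside 8.12%. The log2 change was below 0 for 63 members (96.9%, against 49.3% of all tested), and its median was -0.76 (quartiles -1.19 and -0.47), against 0.01 over all tested probe sets. Of the members called, 16 had fallen at least 2-fold. In 28 members the starvation and control arrays did not overlap and starvation was the lower, which was so for 14.2% of all tested probe sets. Both subunits were affected: 12 of 43 large-subunit genes were called lower, with a median of -0.82, and 8 of 22 small-subunit genes, with a median of -0.69. With 1 array left out at a time these counts ran from 7 to 21 and from 3 to 13. The count moved with the control arrays: 34 members were called lower when control replicate 3 was left out (7.44% of all tested probe sets) and 10 when control replicate 1 was. It was 13 when starvation replicate 3 was left out. Scaled on the spiked-in control RNAs, which moved the median of all tested probe sets by 0.60, 4 members were called lower, and the median of the members was -0.21. The 4 were mRpL23, mRpL55, mRpS24 and mRpS33, and the other starvation calls were lost. With the deposited scaling 13 were called lower and 0 higher.

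After WGA, 8 of the 65 members (12.3%) were called lower, beside 10.1% of all tested probe sets, and 0 were called higher, beside 11.6%. The share called lower was thus close to that of the array as a whole. The direction was less mixed: the change was below 0 for 54 members (83.1%, against 48.4% of all tested), with a median of -0.46 (quartiles -0.72 and -0.22) against 0.03. Of the members called, 4 had fallen at least 2-fold. WGA and control arrays did not overlap, with WGA the lower, in 24 members, beside 17.8% of all tested probe sets. With WGA the higher this was so in 1 member, beside 1983 of the 9675 tested probe sets. That member was mRpL19, whose change of 0.37 ± 0.30 was not called (limma, adjusted p = 0.438). The called genes were 5 of 43 in the large subunit (median -0.47) and 3 of 22 in the small subunit (median -0.46), with ranges of 2 to 10 and 0 to 6 when each array in turn was left out. In all, 16 members were called with control replicate 3 left out (9.39% of all tested probe sets). There were 3 with control replicate 1 left out, 4 with control replicate 2 or WGA replicate 2 left out, and 2 with WGA replicate 3 left out. It also depended on the scaling: with the deposited scaling, which moved the median of all tested probe sets by 0.48, 1 member was called lower and 0 higher and the members' median turned to 0.08. With spike-in scaling (0.55) 1 was lower and 2 were higher, and the median was 0.15. mRpL55 was the member called lower under both scalings. The WGA calls of mRpL23, mRpL33, mRpL42, mRpL51, mRpS18C, mRpS33 and mRpS35 were lost under both. Relative to all tested probe sets the members' median was lower under each scaling tried.

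**Figure D3:**
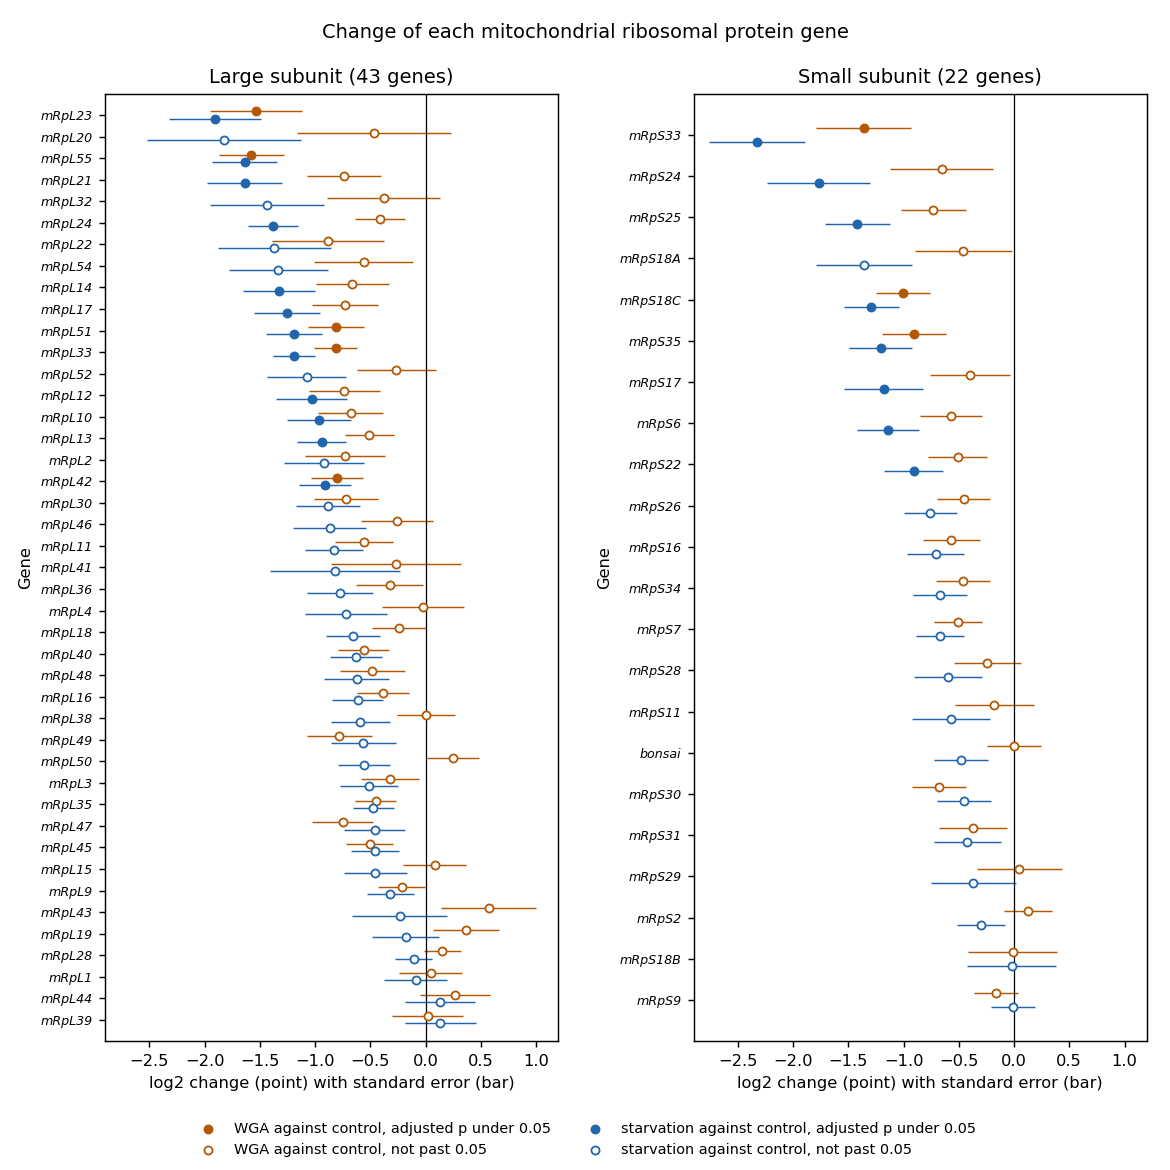
Log2 change (x axis, point) with its standard error (bar) of every member after WGA (orange) and after starvation (blue) against the same 3 control arrays, in order of the starvation change, filled where the adjusted p was under 0.05. Of the 65 starvation points 63 lie below 0 and 20 are filled, and of the WGA points 54 lie below 0 and 8 are filled.

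The level of the members was most often highest in controls, intermediate after WGA and lowest after starvation. This order of the group means held for 49 of the 65 members (75.4%), beside 16% of all tested probe sets, and 9 members had WGA highest and starvation lowest. Array by array, 27, 32 and 38 members lay below all 3 controls on the WGA arrays, and 32, 52 and 58 on the starvation arrays, against 29.4% to 30.6% of all tested probe sets. The treatments were also set against each other in the same fit, in which the control arrays share in the normalisation and in the estimate of the spread. Members were higher after WGA than after starvation in 59 of 65 cases, with a median difference of 0.38 against 0.01 over all tested probe sets. Of these, 2 were called higher, beside 5.94% of all tested probe sets, and 0 lower, beside 5.57%. The WGA arrays lay above all starvation arrays for 21 members, beside 15.7% of all tested probe sets. For most single genes the order of the treatments was therefore within the spread of the arrays.

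The large-subunit genes are described by the place of their proteins in the ribosome where it is known, starting at the exit of the nascent peptide tunnel. mRpL23 encodes a tunnel-exit protein that in bacteria docks factors receiving the nascent chain. It read 7.41, 6.64 and 5.60 in controls, 5.61, 4.99 and 4.45 after WGA, and 5.11, 4.63 and 4.19 after starvation. The starvation arrays were all below the controls, while the highest WGA array just overlapped the lowest control. The fall was 1.91 ± 0.42 after starvation (limma, adjusted p = 0.00681). After WGA the change was -1.54 ± 0.42 (adjusted p = 0.0171), and it missed the threshold without control replicate 1 (adjusted p = 0.0798), control replicate 2 (0.0578), WGA replicate 2 (0.0533) or WGA replicate 3 (0.0811).

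mRpL24, a neighbour of mRpL23 at the tunnel exit, starts large-subunit assembly in bacteria. Its levels were 6.86, 7.03 and 6.38 in controls, 6.66, 6.30 and 6.08 after WGA, and 5.55, 5.08 and 5.50 after starvation. The starved arrays were well below all others, and WGA and control arrays overlapped. mRpL24 changed by -1.38 ± 0.23 after starvation (limma, adjusted p = 0.000996), with a WGA change of -0.41 ± 0.23 (adjusted p = 0.231). It was also called in the direct comparison, at 0.97 ± 0.23 higher after WGA than after starvation (adjusted p = 0.0126). That call was lost without WGA replicate 1 (adjusted p = 0.0726) or starvation replicate 2 (0.0697). The tunnel-exit proteins mRpL17, mRpL22, mRpL23, mRpL24, mRpL45 and mRpL47 as a group had 3 of 6 genes called lower after starvation, with changes of -1.91 to -0.46, and 1 of 6 after WGA, with changes of -1.54 to -0.41, beside 12 and 5 of all 43 large-subunit genes. The third gene called was mRpL17, at -1.26 ± 0.30 (adjusted p = 0.0122), which missed the threshold without control replicate 1 (0.0539) or starvation replicate 2 (0.054). These groups by place in the ribosome were drawn up after the values were known, and no difference between them was tested. Among all tested probe sets the shares called lower were 7.09% after starvation and 10.1% after WGA.

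The stalk, to which translation factors bind, is built on mRpL10, mRpL11 and mRpL12. mRpL12, required for growth in fly studies, read 6.74, 6.31 and 5.38 in controls, 5.33, 5.47 and 5.42 after WGA, and 5.49, 5.28 and 4.57 after starvation. Control replicate 3 lay among the treated arrays, so the groups overlapped in both comparisons. The fall after starvation was 1.03 ± 0.32 (limma, adjusted p = 0.0469), and the WGA change was -0.74 ± 0.32 (adjusted p = 0.129). The starvation call was lost without control replicate 1 or 2, any WGA replicate, or starvation replicate 2 or 3 (adjusted p 0.0613 to 0.185). The other probe set of mRpL12, which is dimmer, gave -0.90 after starvation (limma, adjusted p = 0.347) and -1.31 after WGA (0.126). On it WGA was the lower treatment, at -0.42 against starvation (0.754), while the probe set used gave 0.29 (0.678). mRpL10, the base of the stalk, was called lower after starvation at -0.97 ± 0.29 (adjusted p = 0.039), and lost the call without control replicate 1 or 2, any WGA replicate or starvation replicate 3 (adjusted p 0.0515 to 0.14). mRpL11 stood at -0.83 ± 0.26 (adjusted p = 0.0501). Its dimmer probe set gave 0.33 (adjusted p = 0.807), and none of the 3 stalk genes was called after WGA. Members taken here as proteins of the central protuberance, where the large subunit touches the small one, were mRpL18, mRpL38, mRpL40, mRpL46 and mRpL48. Of these, 0 of 5 were called in either treatment, with changes of -0.87 to -0.59 after starvation and -0.56 to 0.01 after WGA. Over all tested probe sets 7.09% and 10.1% were called lower, so a count of 0 in 5 genes does not set them apart.

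mRpL55, a protein known only from mitochondrial ribosomes, had the largest fall after WGA. It read 6.98, 6.75 and 5.70 in controls, 5.13, 4.78 and 4.79 after WGA, and 4.95, 4.78 and 4.79 after starvation. All 6 treated arrays lay below all controls, and the treatments lay together. The change was -1.58 ± 0.29 after WGA (limma, adjusted p = 0.0014) and -1.64 ± 0.29 after starvation (adjusted p = 0.00179), about 3-fold in both. These 2 calls held in each of the 22 alternative analyses.

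mRpL33 is a small protein shared with bacteria. Controls read 6.47, 6.40 and 6.05, WGA arrays 5.55, 5.499 and 5.42, and starvation arrays 5.23, 5.14 and 4.97. The 3 groups did not overlap anywhere. Its change was -0.81 ± 0.19 after WGA (limma, adjusted p = 0.0081) and -1.19 ± 0.19 after starvation (adjusted p = 0.000907). With the deposited scaling its WGA change was -0.26 (adjusted p = 0.573), and with spike-in scaling -0.19 (0.658).

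mRpL51, another mitochondria-specific protein, read 7.45, 6.90 and 6.503 in controls, 6.35, 6.21 and 5.86 after WGA, and 6.12, 5.59 and 5.56 after starvation. Both treatments lay below the controls and overlapped each other. Its changes were -0.81 ± 0.25 after WGA (limma, adjusted p = 0.0348) and -1.19 ± 0.25 after starvation (adjusted p = 0.00555). The WGA call was lost without control replicate 1 (adjusted p = 0.138), control replicate 2 (0.0767), WGA replicate 2 (0.0788) or WGA replicate 3 (0.136). The remaining large-subunit gene called after WGA was mRpL42, outside the rule for named genes, at -0.80 ± 0.24 (adjusted p = 0.027), with -0.91 ± 0.24 after starvation (adjusted p = 0.0186). Its WGA call was lost without control replicate 1 (0.0987) or WGA replicate 3 (0.129), and its starvation call without control replicate 1 (0.0742) or starvation replicate 3 (0.0532).

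mRpL21, a bacterial-type protein that binds ribosomal RNA, read 5.40, 4.56 and 4.41 in controls, 4.14, 3.67 and 4.34 after WGA, and 3.34, 3.22 and 2.89 after starvation. The 3 groups did not overlap, with WGA between the others. The starvation change was called, at -1.64 ± 0.34 (limma, adjusted p = 0.0047), and the WGA change, at -0.74 ± 0.34, was not (adjusted p = 0.146). The direct difference between the treatments, 0.90 ± 0.34, did not pass (adjusted p = 0.118). The other large-subunit genes called lower after starvation were mRpL13, at -0.94 ± 0.22 (adjusted p = 0.0115), and mRpL14, at -1.33 ± 0.33 (adjusted p = 0.0148), both bacterial-type proteins. mRpL14 missed the threshold without control replicate 1 (0.0609) or starvation replicate 3 (0.0569), and with spike-in scaling (-0.74, adjusted p = 0.125). mRpL13 missed it with the deposited scaling (-0.87, adjusted p = 0.0629) and with spike-in scaling (-0.405, 0.292).

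Other large-subunit genes were not called against the controls. mRpL28, the brightest of the large subunit in controls, read 7.23, 6.99 and 6.79 in controls, 7.25, 7.11 and 7.09 after WGA, and 7.05, 6.70 and 6.94 after starvation. The treated and control arrays overlapped, and neither change (0.15 ± 0.17 and -0.11 ± 0.17) was called (limma, adjusted p = 0.585 and 0.744). mRpL50, a mitochondria-specific protein, read 5.73, 5.44 and 5.39 in controls, 5.66, 5.75 and 5.90 after WGA, and 5.42, 4.84 and 4.64 after starvation. WGA arrays were above all starvation arrays and overlapped the controls. Its changes against control, 0.25 ± 0.23 (adjusted p = 0.507) and -0.56 ± 0.23 (adjusted p = 0.14), were not called, while the direct difference of 0.81 ± 0.23, WGA being higher, was (adjusted p = 0.0409). That call was lost without control replicate 2 (0.0574), any WGA replicate (0.0849, 0.119 and 0.145), starvation replicate 2 (0.134) or starvation replicate 3 (0.127), and in a fit to the WGA and starvation arrays alone (0.0516). mRpL43, the dimmest large-subunit gene, lay near the filter at 2.49 to 2.84 in controls, 2.66 to 3.57 after WGA and 2.08 to 2.66 after starvation, and was not called. mRpL20 read 5.79, 5.26 and 2.71 in controls and 2.70, 3.22 and 2.37 after starvation. Control replicate 3 lay among the starved arrays, and a change of -1.83 ± 0.70 was not called (adjusted p = 0.102).

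Among the small-subunit genes the largest change of all members was that of mRpS33, which encodes a mitochondria-specific protein. Its controls read 6.70, 5.83 and 4.99, its WGA arrays 4.62, 4.40 and 4.40, and its starvation arrays 4.35, 3.38 and 2.80. The groups did not overlap, but both the controls and the starved samples were widely spread. It fell by 2.33 ± 0.43 after starvation, or 5.02-fold (limma, adjusted p = 0.00235), and by 1.36 ± 0.43 after WGA (adjusted p = 0.0376). The starvation call held in all 22 alternatives. The WGA call was lost without control replicate 1 (adjusted p = 0.158), control replicate 2 (0.0893) or any WGA replicate (0.0729, 0.101 and 0.0989).

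mRpS18C is a protein of the S18 family, which lies in the platform of the small subunit with S6, S11 and S15. It read 6.57, 5.97 and 6.09 in controls, 5.54, 5.24 and 4.84 after WGA, and 5.16, 4.91 and 4.68 after starvation. All treated arrays lay below all controls. The change was -1.01 ± 0.25 after WGA (limma, adjusted p = 0.0099) and -1.29 ± 0.25 after starvation (adjusted p = 0.00288), and the WGA call was lost without WGA replicate 3 (adjusted p = 0.0548). With the deposited scaling its WGA change was -0.46 (adjusted p = 0.32), and with spike-in scaling -0.39 (0.363). Its platform partner mRpS6 was called after starvation, at -1.14 ± 0.28 (adjusted p = 0.0136), and not after WGA, at -0.57 ± 0.28 (0.175). Its starvation call missed the threshold without control replicate 1 (0.0566) or starvation replicate 2 (0.0629). bonsai, the S15 protein of the platform, read 5.75, 5.91 and 5.34 in controls, 6.07, 5.52 and 5.41 after WGA, and 5.48, 5.09 and 4.997 after starvation. The groups overlapped, and bonsai was called in neither comparison: the WGA change was -0.00 ± 0.25 (adjusted p = 0.997) and the starvation change -0.48 ± 0.25 (adjusted p = 0.227).

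mRpS35, a mitochondria-specific small-subunit protein, read 6.34, 5.99 and 5.46 in controls, 5.11, 5.26 and 4.70 after WGA, and 5.20, 4.56 and 4.41 after starvation. Both treatments lay below the controls. Its changes were -0.91 ± 0.29 after WGA (limma, adjusted p = 0.0375) and -1.21 ± 0.29 after starvation (adjusted p = 0.0114). The WGA call was lost without control replicate 1 (adjusted p = 0.137), control replicate 2 (0.0974) or any WGA replicate (0.0755, 0.0554 and 0.146), and the starvation call without control replicate 1 (0.0524).

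mRpS25, also mitochondria-specific, read 5.74, 5.38 and 4.69 in controls, 4.63, 4.53 and 4.47 after WGA, and 4.12, 3.85 and 3.59 after starvation. The groups followed each other without overlap, with starvation the lowest. The starvation change was -1.42 ± 0.29 (limma, adjusted p = 0.00483), and the WGA change of -0.73 ± 0.29 missed the threshold (adjusted p = 0.0982). mRpS24, the counterpart of bacterial S3 at the entry of the messenger RNA channel, read 6.01, 5.67 and 4.57 in controls, 4.98, 4.83 and 4.48 after WGA, and 4.74, 3.47 and 2.74 after starvation. The highest starved array overlapped the lowest control. The starvation change of -1.77 ± 0.46 was called (adjusted p = 0.0205), but not without control replicate 1 (0.0897), control replicate 2 (0.0783), starvation replicate 2 (0.0698) or starvation replicate 3 (0.077). mRpS17 and mRpS22 were called after starvation at -1.18 ± 0.36 (adjusted p = 0.0417) and -0.91 ± 0.27 (adjusted p = 0.0356). mRpS17 lost its call without control replicate 1 or 2, any WGA replicate or any starvation replicate (adjusted p 0.0502 to 0.159), and mRpS22 without control replicate 1 or 2, WGA replicate 2, or starvation replicate 2 or 3 (0.054 to 0.122).

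Other small-subunit genes were not called. mRpS7, the brightest of the small subunit in controls and a protein that organises its head, read 7.55, 6.92 and 6.83 in controls, 6.47, 6.74 and 6.56 after WGA, and 6.61, 6.58 and 6.09 after starvation. Its treated arrays were below all controls, yet neither -0.51 ± 0.22 after WGA (limma, adjusted p = 0.12) nor -0.67 ± 0.22 after starvation (adjusted p = 0.0539) was called. mRpS18B, the dimmest in controls, read 5.497, 4.05 and 3.63 in controls, with WGA arrays at 4.22 to 4.52 and starvation arrays at 4.07 to 4.71. Its controls spanned all treated arrays, and its changes were -0.01 and -0.02 ± 0.41. mRpS9, a head protein named here after its values were seen, was the small-subunit gene nearest to 0 after starvation, at -0.01 ± 0.20, with -0.16 ± 0.20 after WGA.

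**Figure D4:**
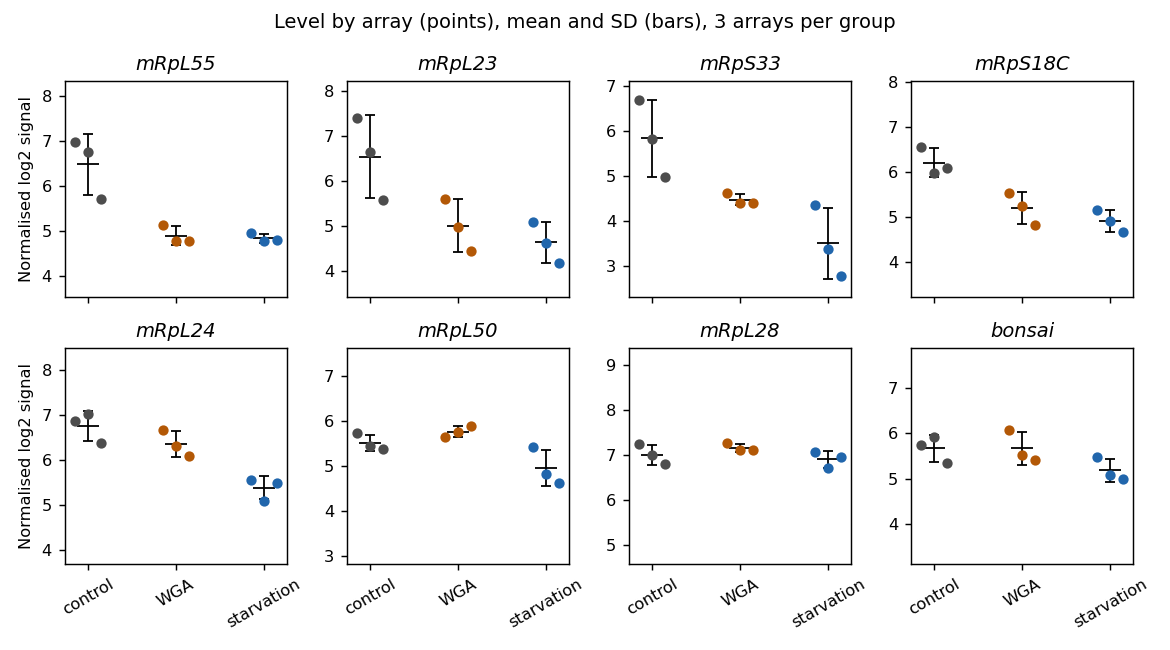
Normalised log2 signal (y axis, each panel spanning the same range) of 8 members on each array (points), with the mean and SD of the 3 arrays per group (bars). Treated arrays of mRpL55, mRpS33 and mRpS18C lie below all controls, those of mRpL24 do so after starvation and overlap the controls after WGA, and the groups of bonsai overlap.

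Falls were called among both bacterial-type and mitochondria-specific proteins. Of 40 genes for proteins with a bacterial counterpart, 13 were called lower after starvation (32.5%, median -0.80). Of 25 for proteins known only from mitochondria, 7 were (28%, median -0.67), beside 7.09% of all tested probe sets. After WGA the counts were 3 of 40 (7.5%, median -0.46) and 5 of 25 (20%, median -0.48), beside 10.1%. In the large subunit 9 of 27 bacterial-type genes and 3 of 16 mitochondria-specific ones were called after starvation, and in the small subunit 4 of 13 and 4 of 9. With 1 array left out at a time, the starvation counts of the 2 classes ran from 6 to 21 and from 4 to 13, and the WGA counts from 1 to 6 and from 1 to 10. The differences between classes were not tested. In human structures the homologues of mRpS30 and mRpS18A sit in the large subunit, and with both counted there the starvation counts were 12 of 45 for the large and 8 of 20 for the small subunit.

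Genes for other steps of mitochondrial translation were a mixed group. Of 21 tested (factors, aminoacyl-tRNA synthetases and others), 1 was called lower after WGA (4.76%, beside 10.1% of all tested probe sets), with a median of -0.05. After starvation 4 were called lower (19%, beside 7.09%), with a median of -0.60. When each array was left out in turn the counts ran from 0 to 3 and from 1 to 7. The 4 were tko, mEFTu1, PheRS-m and CRIF. tko (technical knockout) encodes the S12 protein of the small subunit, which the symbol rule leaves out, and its mutants are known for bang sensitivity. It read 6.33, 5.94 and 4.98 in controls, 5.04, 4.79 and 4.67 after WGA, and 4.37, 3.61 and 3.86 after starvation. The starved arrays lay below all others. Its fall after starvation was 1.81 ± 0.33 (limma, adjusted p = 0.00222), and its WGA change of -0.91 ± 0.33 missed the threshold (adjusted p = 0.0686). mEFTu1, an elongation factor, changed by -1.18 ± 0.32 after WGA (adjusted p = 0.016) and -1.24 ± 0.32 after starvation (adjusted p = 0.0179). It lost both calls without control replicate 1 (0.0735 and 0.0814) or control replicate 2 (0.0619 and 0.0708), the WGA call without WGA replicate 3 (0.0571), and the starvation call without starvation replicate 2 (0.0559) or 3 (0.0703). PheRS-m lost its call without control replicate 1 or 2 or starvation replicate 2 (0.0557 to 0.0619), and CRIF without control replicate 1 or 3, any WGA replicate, or starvation replicate 2 or 3 (0.0521 to 0.12).

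Further lists covered other parts of mitochondrial biogenesis. Of 60 tested genes of oxidative phosphorylation, 50 (83.3%) were called lower after WGA (median -1.29) and 49 (81.7%) after starvation (median -1.19). The shares over all tested probe sets were 10.1% after WGA and 7.09% after starvation. In the direct comparison 1 was called, lower after WGA (1.67%, beside 5.57% of all tested probe sets), with a median of -0.04. Over the 22 alternatives, the deposited and spike-in scalings among them, the counts of this list stayed at 42 to 50 in both treatments. Of 12 genes of protein import, 0 were called after WGA (beside 10.1% lower and 11.6% higher of all tested probe sets, median -0.62). After starvation 4 were lower (33.3%, beside 7.09% of all tested probe sets, median -1.004). Among them was Tom20, a receptor of the outer membrane, at -1.05 ± 0.20 (limma, adjusted p = 0.00282). Tom20 was also 0.78 ± 0.20 higher after WGA than after starvation (adjusted p = 0.0212), a call lost without WGA replicate 1 (0.0667) or 2 (0.115) or starvation replicate 2 (0.0899) or 3 (0.0632). The import count after starvation ran from 2 to 7, and that after WGA from 0 to 3, when each array was left out. Of 17 genes of mitochondrial DNA, transcription and RNA processing, 2 were lower after starvation (11.8%, beside 7.09% of all tested probe sets). They were TFAM, which packages mitochondrial DNA, at -0.94 ± 0.21 (adjusted p = 0.00842) and SLIRP2 at -1.07 ± 0.28 (adjusted p = 0.0195). SLIRP2 lost its call without control replicate 1 (0.078), control replicate 2 (0.0647) or starvation replicate 1 (0.0648). After WGA 1 gene of that list was called higher (5.88%, beside 11.6% of all tested probe sets) and 0 lower (beside 10.1%). It was MTPAP, the mitochondrial poly(A) polymerase, at 1.11 ± 0.35 (limma, adjusted p = 0.0357). The MTPAP call was lost without control replicate 2 or 3 or any WGA replicate (0.0568 to 0.114). Of 33 tested genes of the cytosolic ribosome, 0 were lower and 5 higher (15.2%, beside 11.6% of all tested probe sets) after WGA (median 0.13), and 0 were lower and 4 higher (12.1%, beside 8.12%) after starvation (median 0.05). The number higher was 2 to 5 after WGA and 3 to 5 after starvation when each array was left out. It was 8 and 9 with cyclic loess, 6 and 2 with the deposited scaling, 2 and 3 with median centring, and 7 and 12 with spike-in scaling, where the starvation median was 0.65. None of the 5 tested regulators of mitochondrial biogenesis and growth (Ets97D, ewg, foxo, CycD and Cdk4) was called in any comparison. Over all tested probe sets the shares called, by comparison and direction, were 5.57% to 11.6%. The sign of several medians depended on the scaling. After WGA, that of other translation genes was 0.40 with the deposited and 0.47 with spike-in scaling, that of mitochondrial DNA and RNA genes 0.42 and 0.49, and that of cytosolic ribosomal proteins -0.04 with median centring. With spike-in scaling the starvation medians of the first 2 of these lists were 0.01 and 0.24. The lists were not tested against one another.

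**Figure D5:**
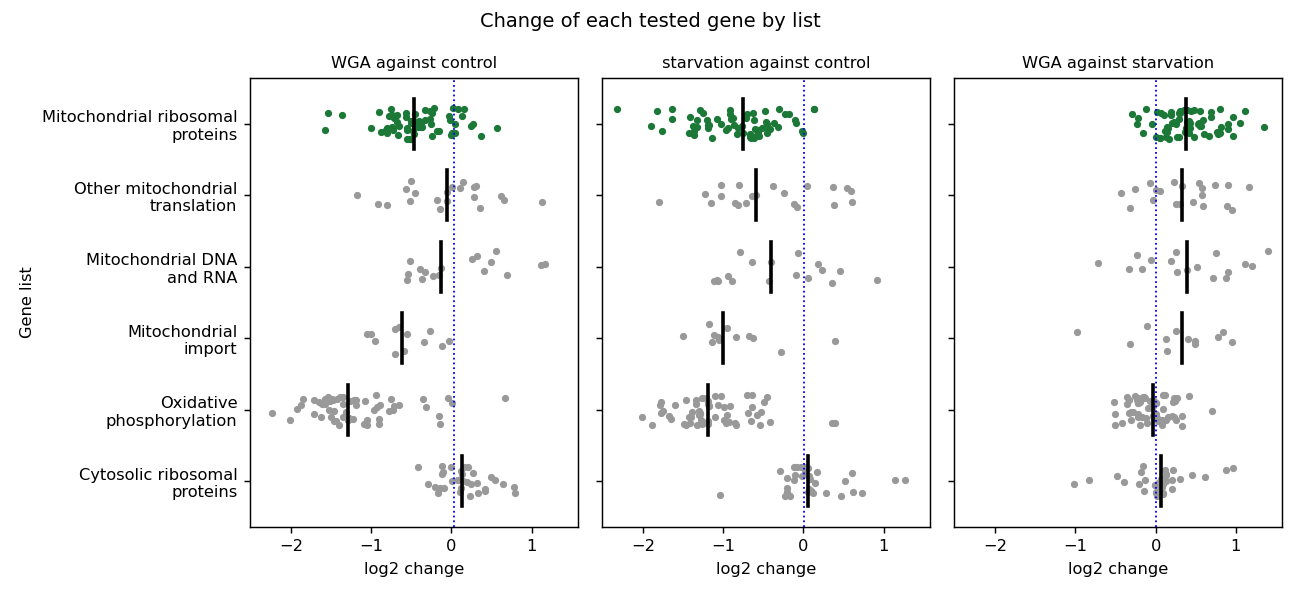
Log2 change (x axis) of each tested gene by list (y axis) in the 3 comparisons, with 1 point per gene, a bar at the list's median and a dotted line at the median of all tested probe sets. The medians of the mitochondrial ribosome are -0.46 and -0.76, those of oxidative phosphorylation -1.29 and -1.19, and those of the cytosolic ribosome 0.13 and 0.05 (WGA and starvation against control).

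Markers of the cell types a midgut sample can hold were read on the same arrays. The summed normalised signal of 7 midgut markers was 21240 to 22590 in controls, 7578 to 9046 after WGA and 22860 to 24020 after starvation. Of these markers 3 were called lower and 1 higher after WGA, and 3 higher after starvation. Beside all marker counts given here, 10.1% of all tested probe sets were called lower and 11.6% higher after WGA. After starvation these shares were 7.09% and 8.12%. The visceral muscle markers summed to 1550 to 2072 in controls, 1272 to 2641 after WGA and 1090 to 1474 after starvation, and 0 of 5 were called. The fat body markers summed to 211.8 to 274.1, 173.9 to 305.1 and 143.8 to 899.9, and 1 of 3, the storage protein gene Lsp2, was called higher after starvation. The Lsp2 call was lost without control replicate 1 (0.0849) or 2 (0.097) or starvation replicate 2 (0.12) or 3 (0.0987, all adjusted p). The enteroendocrine markers summed to 126 to 151.5, 84.9 to 96.8 and 113.6 to 124.4, with AstC lower after WGA, and the Malpighian tubule markers to 76.2 to 112.8, 73.9 to 93.3 and 58.9 to 69.0. The 6 haemocyte genes summed to 32.7 to 52.4 in controls, 28.2 to 54.3 after WGA and 33.0 to 38.7 after starvation. NimC1 and eater were below the filter level on every array, and 0 of the 4 others, all tested, were called. The 6 salivary gland genes summed to 37.5 to 51.3, 9.61 to 50.3 and 19.1 to 35.3, with Sgs1 and Sgs5 below the filter level on every array. Sgs8, the 1 tested, lay below all controls on all treated arrays, at -1.13 ± 0.47 after WGA (limma, adjusted p = 0.114) and -0.79 ± 0.47 after starvation (adjusted p = 0.312). The part of cell composition in the members' levels was not tested.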

How the data were processed

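Per the labels, biotin-labelled cRNA from each pool of midguts was read on 1 Affymetrix array. The deposited table gives 1 linear signal intensity per probe set and array, made by the authors with GCOS per the submitters' processing notes. The sources used here give neither its version nor its algorithm or scaling. Summed deposited signals ran from 909030 to 1457200. Precision is limited by the 3 arrays a group.

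Of 14010 probe sets, 12444 are annotated to 1 gene (1 of them a control), 327 to several, and 1196 others besides the controls to none. The 44 controls were left out of the tests, and 12394 of the first matched a RefSeq gene table (Release 6 assembly) used for names only. An offset of 1.72 (the 20th percentile) was added, log2 values were quantile normalised, and 9675 probe sets with at least 3 of 9 arrays above the 40th percentile (a signal of 5.18) entered a linear model of the 3 groups (limma 3.58.1, R 4.3.3, eBayes with trend), with Benjamini-Hochberg adjustment over all of them. The procedure was tested on simulated data.

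Named members were, per contrast and subunit, the 4 largest called changes, any call against the main direction, bonsai and mRpL12, and the brightest and dimmest gene of each subunit. Other members named individually were chosen after their values were seen. Of the lists, at most 4 called genes per contrast and tko were named. The members, lists and alternatives were chosen with earlier results of these data known. The class with a bacterial counterpart was taken from the number in the symbol (to L36 and S21), and mRpS24, mRpS28 and mRpL47 were moved to it by protein identity. Replicate numbers are not said to pair the arrays, and the main fit held no block for them. Residual correlations were -0.038 to 0.096 for the same number and -0.13 to 0.059 for different ones. The members' median nevertheless fell from replicate 1 to replicate 3 in each group. Whether the replicate numbers mark a shared batch was not tested.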

Additional observations from a re-analysis of the deposited data

How the results depend on the processing

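Each of the 3 comparisons was repeated under 22 alternatives. With the deposited scaling 1 member was called lower after WGA, 13 after starvation, and 8 higher after WGA than after starvation, and the median changes were 0.078 (WGA against control, reversed) and 0.82 (WGA against starvation). With spike-in scaling the counts were 1 lower and 2 higher after WGA, 4 lower after starvation and 0 between the treatments, with medians of 0.146 (WGA, reversed) and -0.212 (starvation). The number called lower after WGA was 5 with median centring, 3 with a variance prior without a trend, 14 with array weights and 13 with the replicate block. With the replicate block 29 were lower after starvation and 3 higher after WGA than after starvation. Between the treatments 1 was called with cyclic loess, 1 without the filter and 0 without the trend. The cause was not tested.

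Leaving out 1 array at a time gave 2 to 16 members lower after WGA (medians -0.642 to -0.277), 10 to 34 after starvation (-0.973 to -0.529), and 0 to 3 higher after WGA than after starvation (0.28 to 0.529). The median of the members minus that of all tested probe sets kept its sign in all of these, at -0.674 to -0.31, -0.988 to -0.539 and 0.272 to 0.52. Of the 20 calls after starvation 10 held without each array in turn, and of the 8 after WGA 2, mRpL33 and mRpL55. No named gene's call changed direction. Split by the number in the symbol alone, the classes with and without a bacterial counterpart had 12 of 37 and 8 of 28 genes called lower after starvation and 3 and 5 after WGA. The median of the members after WGA turned above 0 in both subunits with the deposited (large 0.054, small 0.083) and spike-in scaling (0.122 and 0.15). Promoters and proteins of the members were not analysed here.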
